A study of Homo sapiens with 6 samples.

Results

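Cells recognize DNA and RNA in their cytosol through sensor proteins and answer with interferon, and 8 genes of this response are described here, of 19671 protein-coding genes whose strand is known: the sensors CGAS, IFI16 and IFIH1, the adaptors STING1 and MAVS, the transcription factors IRF3 and IRF7, and the nuclease TREX1. They were chosen by name, and their peaks are those with a midpoint in the RefSeq gene body or within 1 kb of it. ATAC-seq peak lists were available for 6 samples of RKO, a colon cancer cell line, 3 treated with 0.2 µM aphidicolin (APH), an inhibitor of replicative DNA polymerases, for 16 h and 3 treated with DMSO, the solvent control. ATAC-seq uses a transposase that inserts adapters where DNA is accessible, and the study compared accessibility with and without mild replication stress. No sample carries a genetic change made for the experiment, all cells are of 1 line, and all were treated with DNase and frozen before the assay.

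In this pathway, cGAS binds double-stranded DNA and makes the messenger cGAMP, which activates STING at the endoplasmic reticulum, while MDA5, the product of IFIH1, binds long double-stranded RNA and acts through MAVS on mitochondria. Both routes lead to phosphorylation of IRF3 and IRF7, which enter the nucleus and switch on type I interferon genes, and secreted interferon then raises many interferon-stimulated genes, IRF7, IFI16 and IFIH1 among them. TREX1 degrades DNA in the cytosol and keeps the route through cGAS quiet.

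The starts of 7 of the 8 genes were open in every sample of both conditions, and that of STING1 was closed in all 6. A start is called open in a sample when a peak has its midpoint within 1 kb of the 5′ end of the gene, and closed otherwise, which says that no peak was called there. Over all protein-coding starts, 55% were open in all 6 samples and 39.9% were closed in all 6. No member opened or closed with APH, as against 21 protein-coding starts open in the 3 APH samples and no DMSO sample and 4 with the opposite pattern. Of the 7 open starts, 1 was lower in all APH samples than in any DMSO sample, that of IRF3 (14.3%), where 39.9% of all tested starts were lower in this way, and none passed the test across all starts.

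Values of all peaks moved with the condition. The APH samples held 70121 to 84510 peaks against 64511 to 77194 in DMSO, ranges that overlap, and their median peak value was 47.0 to 48.6 against 51.0 to 53.8, ranges that do not. A value is the mean number of extended alignments per 32-nt bin over a peak. It shows no scaling by a factor for the depth of the library. Whether reads were drawn down to equal numbers was not tested, and the depth is unknown. Over the 10811 starts open in all samples, the median difference was −0.26 on the log2(value + 1) scale. It depended on the level: with starts ranked by mean level into 10 classes of equal size, class 1, the weakest, had a median of −0.14, class 2 of −0.23 and classes 3 to 10 of −0.27 to −0.29. The IFI16 start falls in class 2 and the other 6 members in classes 3 to 9. How far depth or peak calling sets this shift was not tested. As for the labelled tissue, the epithelial markers KRT8 and EPCAM and the intestinal factor CDX2 were open in all samples, KRT18 in 3 DMSO and 2 APH samples, and CDH1 and VIL1 were closed in all. Of the 5 markers of blood cells, none was open in more than 1 sample, and of the 5 fibroblast markers COL1A1 and COL1A2 were open in all.

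Where promoter sequence was at hand, it shows what lies under the peaks. RefSeq windows of GRCh38.p14 were found for 4 of the 8 members, IFI16, IFIH1, MAVS and TREX1. Stretches ahead of 3 starts are printed 5′ to 3′ on the gene's strand, to show the motif matches near these starts. Capitals mark matches of 3 motifs: GAAANNGAA, the core of the element bound by IRF proteins and by the interferon-activated factor ISGF3 (IFIH1, IFI16); GGGCGG, a GC box (MAVS); and CCAAT (MAVS). A match on the other strand is printed as its reverse complement.
IFIH1, all bases between its start and the divergent start of GCA, chr2:162318685-162318762, minus strand: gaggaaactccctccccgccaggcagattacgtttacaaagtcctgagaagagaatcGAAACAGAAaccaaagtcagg
IFI16, the 150 bases before its later start, chr1:159009757-159009906, plus strand: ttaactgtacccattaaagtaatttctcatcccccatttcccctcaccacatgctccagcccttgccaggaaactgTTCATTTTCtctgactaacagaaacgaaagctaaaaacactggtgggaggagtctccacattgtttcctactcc
MAVS, bases −120 to −21 from its start, chr20:3846714-3846813, plus strand: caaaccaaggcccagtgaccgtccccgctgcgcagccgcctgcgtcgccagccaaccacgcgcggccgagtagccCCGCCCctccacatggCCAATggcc

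The core GAAANNGAA lay at −21 to −13 from the IFIH1 start. It was matched 3 more times in the window of 300 bases, in overlapping matches on the other strand between −164 and −144, where GCA is transcribed. The IFI16 stretch held 1 match, at −74 to −66, and the windows of MAVS and TREX1 held none. Of 35116 RefSeq windows of this length, 8.11% held at least 1 match. MAVS held 3 GC boxes and 1 CCAAT, of which 1 GC box and the CCAAT lie in the stretch printed. The IFIH1 window also held a GC box, at −107 to −102, and the later IFI16 window a CCAAT, at −195 to −191, both outside the stretches printed. The GC box occurred in 45.0% and CCAAT in 34.6% of all windows. The MAVS window was 71.7% G and C with 34 CpG sites, against a median of 58.7% and 14 over all windows, and the 2 IFI16 windows were 42.3% and 41.7% with 1 and 3 CpG sites. TREX1 held none of the 7 motifs searched, which were these 3 and TTCNNNGAA, TGACGTCA, CGCATGCG and CACGTG, on both strands. In every sample all 300 bases of the IFIH1, MAVS and TREX1 windows lay under a peak, while the later IFI16 window was covered over 220 to 256 bases and the earlier one over none.

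CGAS, the DNA sensor that makes cGAMP, lies on chromosome 6 at 73423711 to 73452297 on the minus strand. Its start had a value of 147.6, 182.4 and 110.6 in DMSO replicates 1, 2 and 3 and of 140.6, 171.1 and 116.1 in APH replicates 1, 2 and 3. The conditions overlapped, with replicate 2 the highest and replicate 3 the lowest of each. The difference was −0.03 ± 0.19 (log2(value + 1), SE, n = 3 and 3; limma adjusted p = 0.905), and it was 0.23 once each sample was centred on its median start. The shape of the peaks differed between samples. In replicate 3 of both conditions a single peak of 1305 bp (DMSO) or 1231 bp (APH) covered what replicate 2 of both conditions gave as a pair of peaks, one at the start and a weaker one 802 bp (DMSO) or 787 bp (APH) into the gene, with values of 67.6 (DMSO) and 58.0 (APH). The low values of replicate 3 go with this width, whose part in them was not tested. With the length-weighted mean of the peaks at the start the difference was 0.04, and with the summed value times length it was −0.30 (adjusted p = 0.151). The only other CGAS peak, 21902 bp into the gene, was called in DMSO replicate 1 alone with a value of 22.9.

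IFI16, a nuclear and cytosolic DNA sensor of the PYHIN family, lies on chromosome 1 at 158999976 to 159055151 on the plus strand and held 4 peaks in every sample. Its body overlaps with PYDC5 and AIM2, the latter another PYHIN sensor. The peak nearest to the 5′ end of the gene body, 844 bp inside, had the lowest mean of the 7 starts, at 74.7, 104.2 and 55.8 in DMSO and 89.2, 118.5 and 62.4 in APH. The conditions overlapped, and the replicates of each condition differed from each other by more than the conditions did. The estimate was 0.20 ± 0.25 (adjusted p = 0.545) and 0.46 after centring on the median start.

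The 5′ end of the gene body is not the only IFI16 start. The RefSeq promoter table places its starts inside the body, at 159008991 and 159009907, and the peak at the later of these, at 159009701 to 159010274, was stronger, at 131.9, 184.2 and 147.8 in DMSO and 155.8, 128.3 and 119.4 in APH. There the estimate was on the other side, −0.20 ± 0.15 (adjusted p = 0.336 over the starts of that table), with overlapping conditions. The strongest IFI16 peak stood 15720 bp into the gene, at 189.5, 344.3 and 214.6 in DMSO and 220.8, 258.6 and 176.3 in APH. A peak at 12701 bp had values of 133.4, 172.0 and 134.4 in DMSO and 124.2, 128.6 and 121.4 in APH, so all APH values were below all DMSO values. Its difference was −0.22 ± 0.15 (adjusted p = 0.559 over all regions), and −0.19 after centring on the median of all regions, which moves values less than centring on the median start. The direction at IFI16 thus depended on the peak taken as the start. At the peak 844 bp inside it also depended on single samples, at −0.02 without DMSO replicate 3 and −0.02 without APH replicate 2.

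IFIH1, which encodes the RNA sensor MDA5, lies on chromosome 2 at 162267074 to 162318684 on the minus strand. Its start faces that of GCA, 79 bp away, and both share 1 peak, so that accessibility cannot be assigned to either gene. The shared peak had values of 87.7, 91.8 and 121.0 in DMSO and 92.9, 102.3 and 94.4 in APH. The conditions overlapped, DMSO replicate 3 being the highest of the 6. The difference was −0.04 ± 0.15 (adjusted p = 0.849), turning to 0.22 after centring and to 0.10 without DMSO replicate 3. A weaker peak 570 bp into the gene read 42.2, 53.1 and 44.1 in DMSO and 50.2, 56.4 and 58.0 in APH, and after centring of all regions it was the 1 of 17 tested member regions higher in every APH sample than in any DMSO sample, as were 9.09% of all regions, and 2 member regions were lower in this way, as were 11.4% of all regions. As deposited, its conditions overlapped (0.24 ± 0.21, adjusted p = 0.673). A peak 17356 bp into the gene was at 34.7 to 63.6 in DMSO and 28.8 to 43.0 in APH. Another at 20544 bp was called in replicate 2 of each condition only, the 2 samples with the most peaks of their conditions.

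STING1, the adaptor that receives cGAMP, had no peak at all. Its body of 7226 bp on chromosome 5, at 139475533 to 139482758 on the minus strand, and the 1 kb around it were without a peak in all 3 DMSO and all 3 APH samples. Of all protein-coding genes, 16.8% had no peak in any sample within the same bounds, and of those with a body of 5 to 10 kb it was 27.7%. The nearest peak upstream of the STING1 start was 30966 to 31001 bp away in 4 samples, at values of 109.9 to 174.4. DMSO replicate 3 had a weak peak at 10125 bp, with a value of 22.1, and APH replicate 2 one at 3760 bp, with 31.0. Downstream, the nearest peak was 14190 to 23784 bp from the start, at values of 23.3 to 48.0. The lowest values in the lists were 15.1 to 15.5 by sample. The distances overlapped between the conditions. A closed start does not give the level of the transcript.

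MAVS, the mitochondrial adaptor of MDA5 and RIG-I, lies on chromosome 20 at 3846834 to 3876118 on the plus strand. The start read 103.9, 99.5 and 94.0 in DMSO and 69.5, 114.7 and 90.6 in APH, so APH held both the lowest and the highest sample. The difference was −0.14 ± 0.18 (adjusted p = 0.537). It was 0.12 after centring and 0.04 without APH replicate 1. Peaks were again divided differently between samples: DMSO replicate 3 had a single peak of 1142 bp where DMSO replicate 2 had a pair of 396 and 519 bp, and APH replicates 1 and 2 had an extra small peak at −564 and −552 bp. A peak 8402 bp into the gene read 47.0, 75.8 and 58.8 in DMSO and 37.7, 62.2 and 49.4 in APH. There too the conditions overlapped (−0.28 ± 0.24, adjusted p = 0.673).

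IRF3, the transcription factor that turns on the interferon beta gene, was the member whose start separated by condition. The gene lies on chromosome 19 at 49659572 to 49665857 on the minus strand. The peak over its start, at 49665423 to 49666357 when merged, had values of 190.2, 190.9 and 173.7 in DMSO and 130.4, 130.1 and 134.1 in APH. The start of BCL2L12 lies 715 bp inside IRF3, so the merged peak has its midpoint within 1 kb of both starts. Its accessibility cannot be assigned to IRF3 alone. All APH samples were below all DMSO samples, and the 3 APH samples lay close together. The mean was 185 ± 9.71 (SD, n = 3) in DMSO and 132 ± 2.19 (SD, n = 3) in APH, a ratio of 0.714. On the log2 scale the difference was −0.49 ± 0.11 (limma, adjusted p = 0.0659 over 10811 starts). The limma adjusted p was between 0.00966 (replicate block) and 0.661 (centring on the median start) over the alternatives tried. It was under 0.05 with the replicate block, the length-weighted mean, the summed value and without APH replicate 3. After centring on the median start, the difference was −0.23 ± 0.11 (adjusted p = 0.661), and the conditions still did not overlap. As a region, centred on the median of all regions, the same peak differed by −0.46 (adjusted p = 0.164). Of all tested starts 5.98% had a lower difference.

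Without overlap, 39.9% of the tested starts were lower in APH and 0.694% were higher, so a start such as that of IRF3 was common before centring. After centring the shares were 6.88% lower and 7.58% higher. No start of the 10811 had an adjusted p under 0.05 (0%), while 3996 had an unadjusted p under 0.05, 3950 of these lower and 46 higher. The count of 0 depended on the setting: it was 261 with the length-weighted mean of the peaks at a start, 780 without APH replicate 3, 2984 with the summed value times length and 5082 with the replicate number as a block. The other IRF3 peaks did not follow the first. The one 1204 bp into the gene, close to the start of BCL2L12, which runs in the opposite direction from a start 715 bp inside IRF3, read 164.6, 211.2 and 181.1 in DMSO and 157.3, 197.8 and 173.1 in APH. The one at 5925 bp, near the end of the gene, read 67.8, 90.0 and 97.6 in DMSO and 97.4, 98.7 and 71.5 in APH. Both overlapped between conditions, with differences of −0.07 ± 0.14 and 0.07 ± 0.19.

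IRF7, the factor that amplifies interferon production, lies on chromosome 11 at 612555 to 615950 on the minus strand and held 3 peaks in every sample. The start read 175.5, 199.6 and 185.2 in DMSO and 154.7, 182.3 and 159.3 in APH, with 1 APH sample inside the DMSO range. The difference was −0.18 ± 0.12 (adjusted p = 0.272), less negative than the median of all starts, and it became 0.08 after centring. The inner peak, at 2303 bp, was at 85.1 to 107.0 in DMSO and 93.4 to 102.1 in APH. The peak past the 3′ end, at 3614 bp, was at 90.2 to 101.1 in DMSO and reached 112.6 in APH.

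TREX1, the cytosolic 3′ to 5′ DNA exonuclease, is a gene of 1816 bp on chromosome 3 at 48465830 to 48467645 on the plus strand, inside the bounds of ATRIP. Its only peak, over the start, was the highest of the 7 in every sample. It read 202.5, 278.4 and 240.3 in DMSO and 248.1, 303.9 and 211.8 in APH. The conditions overlapped, with the highest sample in APH and the lowest in DMSO. The difference was 0.08 ± 0.16 (adjusted p = 0.704) and 0.34 after centring, and 95.6% of the tested starts had a lower difference. It turned to −0.04 without DMSO replicate 1 and to −0.06 without APH replicate 2.

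**Figure D1:**
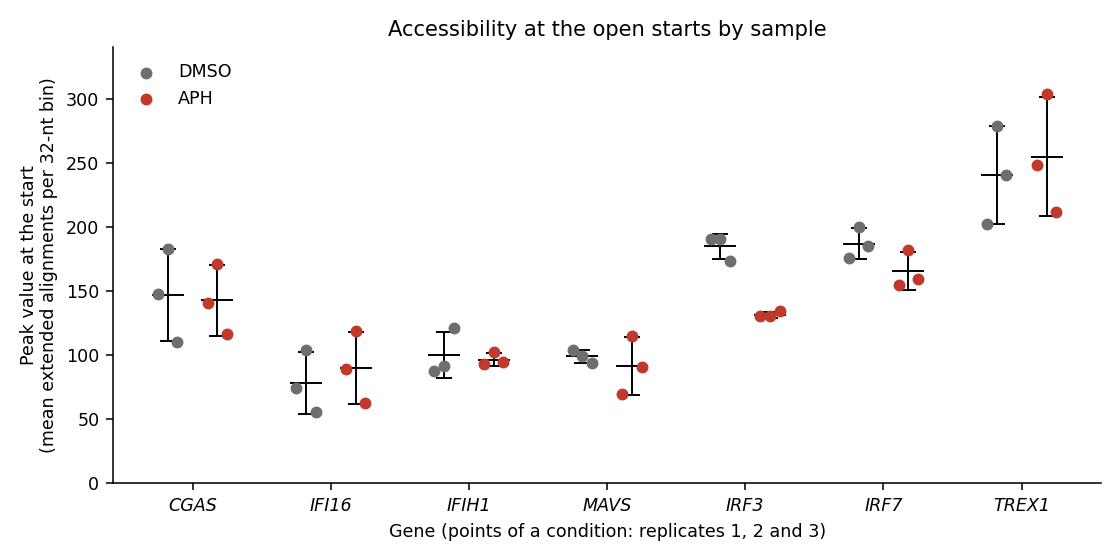
Peak value at the start (mean extended alignments per 32-nt bin) of the 7 members with an open start, by condition, with a point for each replicate in the order 1, 2 and 3, and bars for the mean and SD of 3 replicates. IRF3 is the gene whose APH points (130.1 to 134.1) all lie below its DMSO points (173.7 to 190.9), where 39.9% of all tested starts were lower in this way. Its separation also held after median centring, where 6.88% of all tested starts were lower without overlap.

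Set beside each other, the values are per bin and so per length. In DMSO the order of the means was TREX1 (240), IRF7 (187), IRF3 (185), CGAS (147), IFIH1 (100.2), MAVS (99.1) and IFI16 (78.2). TREX1 was above IRF7 in all samples of DMSO, and each of the other neighbours in this order overlapped. In APH the order was TREX1 (255), IRF7 (165), CGAS (143), IRF3 (132), IFIH1 (96.5), MAVS (91.6) and IFI16 (90.0), with IRF3 now below CGAS and within its range. Relative to the median start of its own sample, IRF3 went from 1.04 to 1.25 in DMSO to 0.953 to 1.02 in APH, while TREX1 stood at 1.33 to 1.68 and 1.51 to 2.23.

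**Figure D2:**
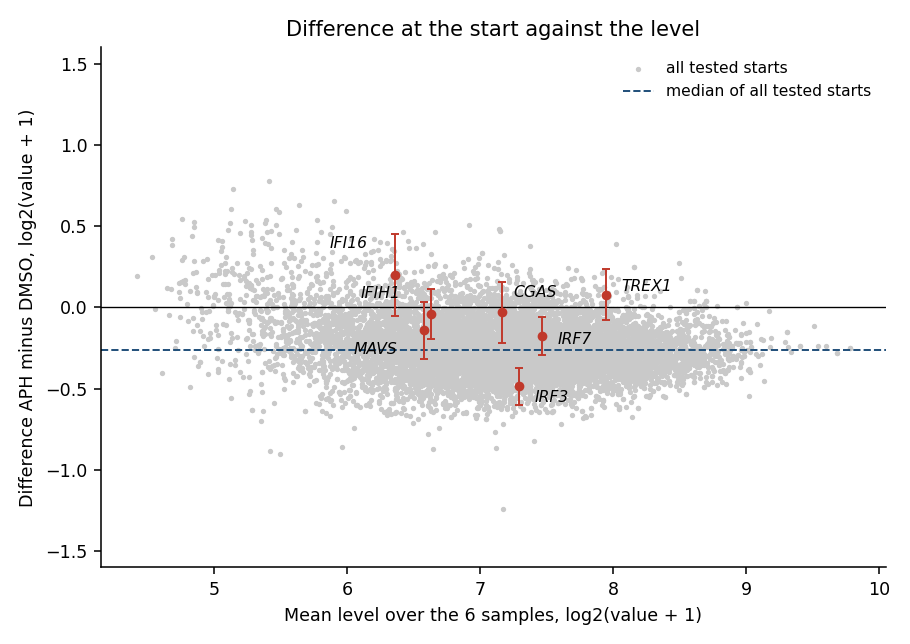
Difference between APH and DMSO at the start against the mean level, both as log2(value + 1), for the 10811 tested starts (grey) and the 7 members (red, with SE), with the median of all tested starts dashed at −0.26. The member IRF3 lies below that line and the other 6 above it, of which IFI16 and TREX1 are also above 0, and centring turns CGAS, IRF7, IFIH1 and MAVS to above 0.

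Over the 7 tested starts, 5 estimates were lower and 2 higher in APH, with a median of −0.04 beside the −0.26 of all starts. Most of all tested starts were lower, as their 75th percentile was −0.15. After centring, 6 were higher and 1 was lower, with a median of 0.22. The 1 without overlap was again IRF3, where 6.88% of all tested starts were lower without overlap after centring. The members were chosen by name and 1 of the 8 has no value, so these counts describe the list and are not a test of it.

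The number of peaks per gene did not separate the conditions for any member. The 8 genes together held 19, 20 and 17 peaks in DMSO and 18, 22 and 17 in APH. IFI16 (4), IRF3 (3), IRF7 (3), TREX1 (1) and STING1 (0) had the same number in all 6 samples. CGAS had 3, 2 and 1 in DMSO and 1, 2 and 1 in APH, and MAVS had 2, 3 and 2 in DMSO and 3, 5 and 2 in APH. A two-sided exact permutation test gave p = 0.7 for both genes and 1.0 for the others, and 1.0 for all 8 after Benjamini-Hochberg adjustment, in a design that cannot go below 0.1. The division of 1 accessible stretch into 1 or several peaks, as at CGAS and MAVS, moves these numbers.

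**Figure D3:**
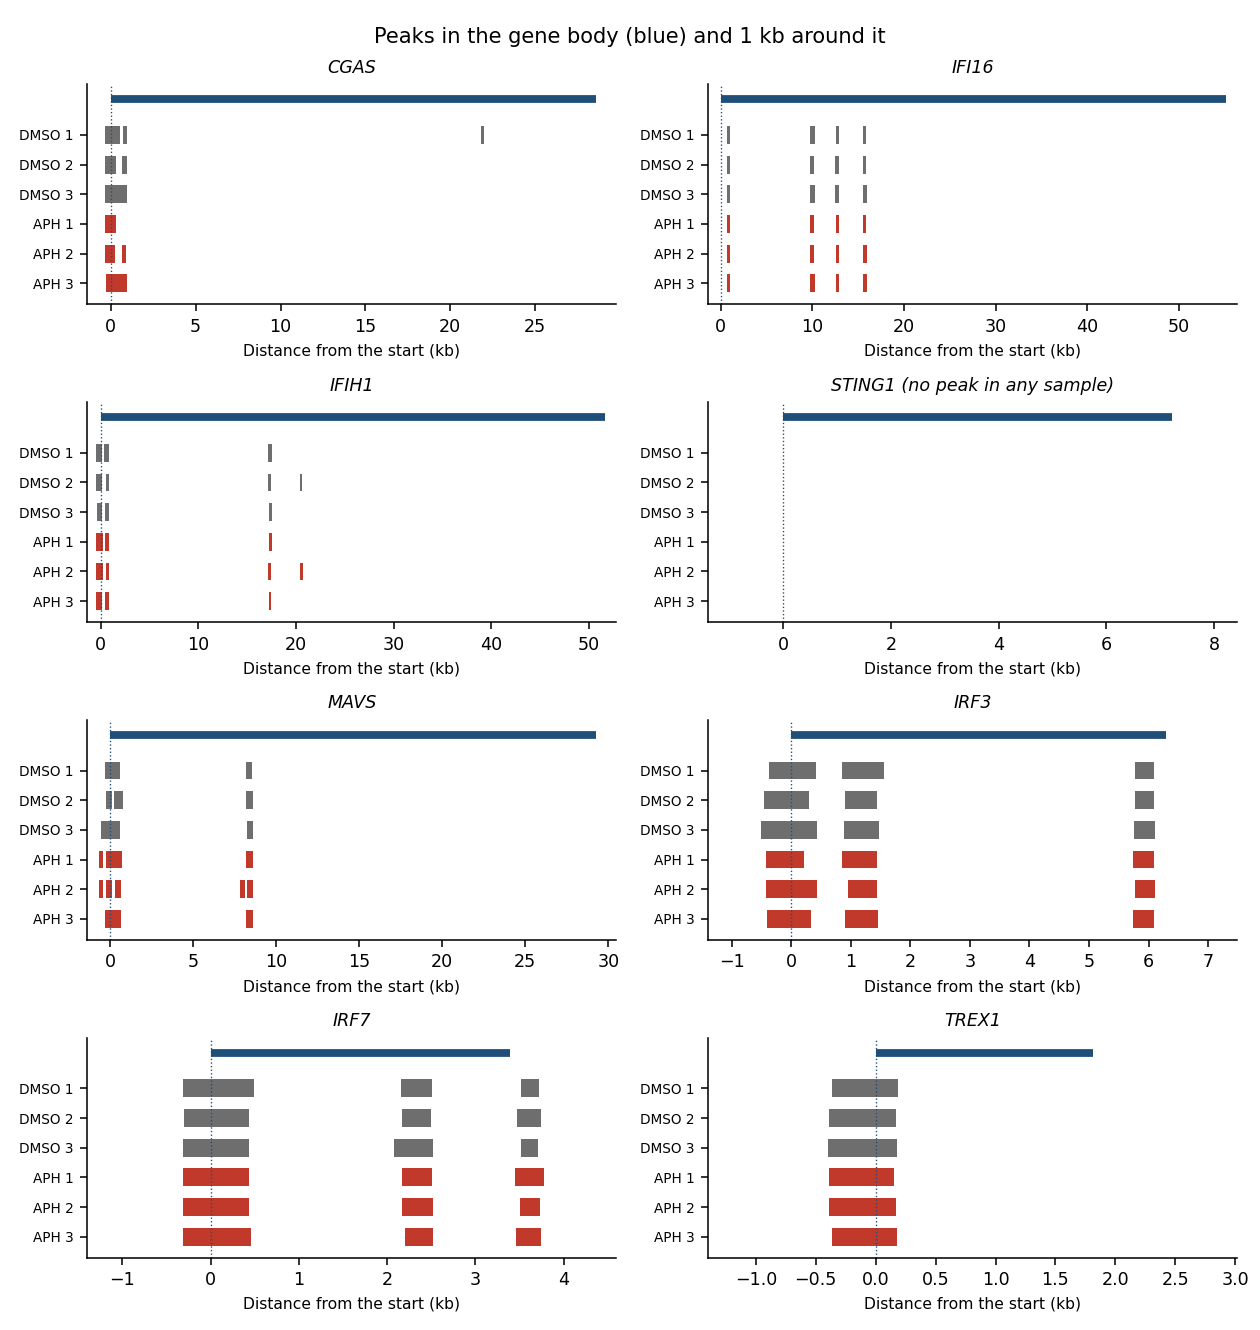
Peaks of each sample (rows, DMSO grey and APH red, bar length to scale) by distance in kb from the start of the 8 genes, with the gene body in blue. Positions are shared by all 6 samples for IFI16, IRF3, IRF7 and TREX1, the wide and the divided peaks at CGAS and MAVS are seen in both conditions, and STING1 has no peak.

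Merged over samples, the peaks of the 8 genes formed 20 regions, of which 17 had a peak in all 6 samples and were tested among 50150 such regions. Of the 17, 11 had a lower and 6 a higher estimate in APH, with a median of −0.07, beside −0.06 over all regions. After centring on all regions, the regions at the starts of IRF7, IFIH1 and MAVS stayed below 0, at −0.15, −0.01 and −0.19, where centring on the median start had put these starts above 0. The conditions did not overlap in 2, both lower, the IRF3 start and the IFI16 peak at 12701 bp, and this was so in 14.4% (lower) and 4.21% (higher) of all regions. None passed an adjusted p of 0.05, nor did any of the 50150 regions (0%), of which 6297 had an unadjusted p under 0.05, and 1 member region did, the IRF3 start, with an adjusted p of 0.29 over regions from limma.

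The starts most like each member over the 6 samples, by the root mean square difference of log2(value + 1), were those of NEK2 (0.0596) and BRME1 for IRF7, of TIMM13 (0.0677) and VCPKMT for IRF3 and of GRPR (0.0726) and CRYM for CGAS. For IFIH1 they were GCA, by the shared peak, and SLC25A17 (0.0756), for TREX1 DNM1L (0.0895) and MTR, for MAVS GATA6 (0.112) and GXYLT2, and for IFI16 SEC16B (0.161) and ITGAX. TIMM13, a mitochondrial import gene, read 184.0, 179.9 and 175.6 in DMSO and 130.0, 140.6 and 141.2 in APH.

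A wider list of 84 genes of the pathway gives the setting. The starts of 60 (71.4%, against 55% of all protein-coding starts) were open in all 6 samples, 21 were closed in all (against 39.9% of all starts), and 3 were open in some. No start was open in all samples of 1 condition and none of the other. Of 9 interferons and chemokines, among them IFNB1, IFNA1, CXCL10 and CCL5, the response's main products, 8 were closed in all samples, and IFNL1 had a single peak of 21.5 in APH replicate 1. Of the other roles, 13 of 14 receptor and signalling genes, 9 of 10 nucleases and regulators and 8 of 9 kinases and transcription factors were open in all 6. Of the 16 further sensors and adaptors 11 were open in all, and AIM2, ZBP1, TLR9 and MRE11 were closed in all at the 5′ end of the RefSeq gene body. Of 26 interferon-stimulated genes 19 were open in all, and OAS1, OASL, IFI27, IFI44, IFI44L, XAF1 and IFITM1 were closed.

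None of the 60 tested starts of the wider list passed the adjusted threshold, and 16 had an unadjusted p under 0.05 (26.7%, against 37.0% of all starts). They were lower in APH without overlap in 20 (33.3%, against 39.9% of all starts) and higher in 1 (1.67%, against 0.694%). After centring none was lower, against 6.88% of all starts, and 8 were higher (13.3%, against 7.58%). Estimates were lower in 51 and higher in 9, and 7 of those 9 were interferon-stimulated genes. Most of all tested starts were lower too, with a 75th percentile of −0.15 and a 95th percentile of 0.07. By role, the median was −0.10 for interferon-stimulated genes, −0.18 for nucleases and regulators, −0.22 for receptors and signalling genes, −0.27 for kinases and transcription factors and −0.32 for sensors and adaptors. The level differed as well: 10 of the 19 tested interferon-stimulated starts, 5 of those with a higher estimate among them, were in level classes 1 and 2, where all starts had medians of −0.14 and −0.23, against 6 of 13 receptor and signalling genes and 3 of 9 nucleases and regulators, none of these with a higher estimate, 3 of 11 sensors and adaptors, 1 with a higher estimate, and 0 of 8 kinases and transcription factors. Its part in the difference was not tested. These counts were not tested against other genes.

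The genes of each role with the greatest differences among those without overlap were the following. PRKDC, the catalytic subunit of DNA-PK, read 279.2, 283.3 and 296.9 in DMSO and 135.6, 252.9 and 170.7 in APH (−0.67 ± 0.19, adjusted p = 0.0659), and XRCC5, its Ku80 partner, differed by −0.40 ± 0.13. Among the factors, JUN read 395.5, 551.8 and 507.1 in DMSO and 356.7 to 358.0 in APH (−0.43 ± 0.15, adjusted p = 0.0801), and IRF1 differed by −0.38 ± 0.12. RNASEH2A, a subunit of the enzyme that cuts RNA in RNA-DNA hybrids, differed by −0.36 ± 0.14, and BANF1, which binds cytosolic and nuclear DNA, by −0.32 ± 0.14. The interferon gamma receptor gene IFNGR1 differed by −0.47 ± 0.16 and the kinase gene TYK2 by −0.31 ± 0.13. None of these 8 stayed apart between conditions after centring.

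The other direction was seen at OAS2, which makes 2′-5′ oligoadenylate when it binds double-stranded RNA. Its start was weak, at 30, 33.6 and 30.8 in DMSO and 53.1, 39.6 and 43.5 in APH, with all APH samples above all DMSO samples. The difference was 0.51 ± 0.18 (limma, adjusted p = 0.0826) and 0.77 after centring, where the conditions again did not overlap. PSMB9 and TAP1, which face each other and share 1 peak, were lower, at 112.6 to 150.8 in APH against 153.8 to 176.4 in DMSO (−0.30 ± 0.14), and overlapped after centring.

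**Figure D4:**
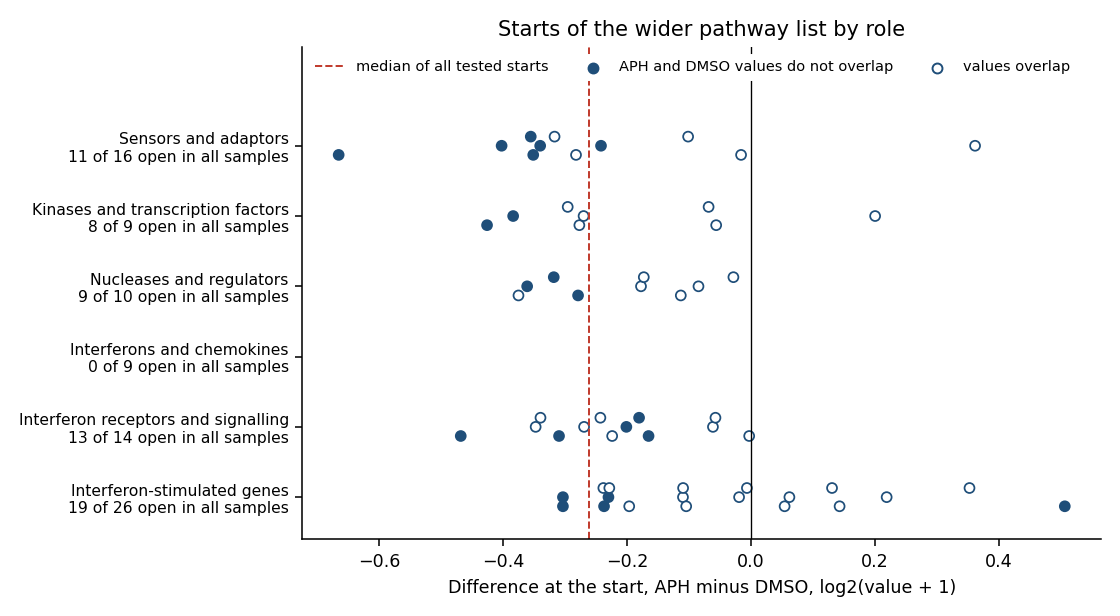
Difference at the start between APH and DMSO, as log2(value + 1), for the 60 genes of the wider list open in all samples, a point each, by role, filled where the 3 APH and 3 DMSO values do not overlap. The 60 points lie on both sides of the dashed median of all starts (−0.26), 20 filled points are on the lower side of 0 (33.3%, against 39.9% of all starts) and 1, OAS2, on the higher (1.67%, against 0.694%), and after centring the 20 overlap and 8 starts are higher without overlap (13.3%, against 7.58%).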

How the data were processed

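ATAC-seq was done on 3 DMSO and 3 APH samples of RKO cells from independent experiments, and the authors deposited 1 peak list per sample with the position and the signal of each peak. According to the methods and the submitters' processing notes, reads were aligned to hg38 with BWA 0.7.12, duplicates were removed, alignments of 200 bp after extension were assigned to bins of 32 nt, and peaks were called per sample with MACS2 2.1.0 without a control, leaving out blacklisted regions. The deposited signal is the mean per bin. Multiplied by the bins under a peak it was whole, within the rounding of the 6 significant digits written, for at least 99.987% of peaks below 1000 bp and 1000 in each sample. No scaling by a factor for depth is therefore seen. Reads drawn down to equal numbers would leave whole numbers too, which was not tested. The depth is unknown, and no counting interval is given. No shift of reads to the cutting site is named.

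Genes came from RefSeq (GRCh38.p14). Strand was taken from the RefSeq promoter table for 15842 protein-coding genes and by symbol from GENCODE for 3829. The start value is that of the strongest peak with its midpoint within 1 kb of the start, and starts with a peak in all 6 samples were tested, 7 of the 8 members among them. Regions are unions of peaks that share 1 bp or more, and their value is the length-weighted mean. Log2(value + 1) was compared with limma 3.58.1 (R 4.3.3; Python 3.11.15) with an intensity trend and Benjamini-Hochberg adjustment over all features at 0.05. For peak numbers, an exact permutation test, two-sided, was used. Fits were first tested on simulated data with known changes. For starts, 18.0% of 50 changes of 0.5 (log2) and 86.0% of 50 changes of 1.0 were recovered. There were 7 calls among unchanged starts. Alternatives covered scaling, pseudocounts, filters, windows, peak sets, blocking by replicate and leaving out each replicate. The starts of the RefSeq promoter table, the summed value times length and peak numbers without each replicate were chosen after seeing the data. The 8 members, the wider list, the markers and the motifs were chosen with earlier results of these data known. Besides the members, genes were named by rule: of the wider list, those past the threshold, those open in 1 condition alone, and per role the 2 with the greatest difference without overlap, and the 2 starts most like each member. Other genes named as closed or as neighbours were chosen after their values were seen.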

Additional observations from a re-analysis of the deposited data

How the results depend on the processing

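The count of starts past the adjusted threshold, 0 with the fit as reported, was 261 with the length-weighted mean of the peaks at the start, 2984 with the summed value times length (12 higher) and 0 to 780 with a replicate left out, 780 without APH replicate 3 and 1 each without DMSO replicate 2 or 3. For regions it was 0, against 1 with median centring and 0 to 3 with a replicate left out, 3 without DMSO replicate 2. The IRF3 start kept its direction under all settings tried. Its adjusted p was under 0.05 with the length-weighted mean (0.0486), the summed value (0.0247), the replicate block (0.00966) and without APH replicate 3 (0.0468), and over it, up to 0.661, otherwise.

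With a replicate block, 5082 starts (54 higher) and 6604 regions (1021 higher) passed, the IRF3 region among them (adjusted p = 0.00369). Deviations of samples with the same number correlated over 10811 starts at −0.0876, 0.575 and 0.586 for numbers 1, 2 and 3. Samples 2 and 3 of each condition correlated best with their own number, and samples 1 did not. Deviations from a mean of 3 samples are not independent, so these correlations cannot settle whether the numbers mark a pairing. The fit without a block was kept as the reported one, and its lack of calls rests on that choice.

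The estimates at other members, none past the threshold in any setting, turned as follows. Median centring gave 0.23 at the CGAS start, 0.085 at IRF7, 0.22 at IFIH1, 0.12 at MAVS and 0.016 at the IRF7 region at 2303 bp. Quantile normalization gave 0.23, 0.090, 0.20 and 0.095 at these starts, and 0.067 at the IFI16 region at 15720 bp, 0.13 at the IRF3 region at 1204 bp, 0.10 and 0.022 at the IRF7 regions at 2303 and 84 bp and 0.080 at the IFIH1 region at −139 bp. The length-weighted mean gave 0.043 at CGAS and 0.085 at IFIH1, the summed value 0.094 at IFIH1, and the RefSeq promoter table −0.20 at IFI16. With a replicate left out, the start estimates ranged from −0.22 to 0.14 at CGAS, −0.022 to 0.43 at IFI16 (the region at 844 bp alike), −0.13 to 0.10 at IFIH1 (its region alike), −0.32 to 0.041 at MAVS and −0.056 to 0.20 at TREX1 (its region alike). Those of regions ranged from −0.053 to 0.14 at CGAS, −0.33 to 0.10 at IFI16 (15720 bp), −0.086 to 0.22 and −0.16 to 0.022 at IRF3 (5925 and 1204 bp) and −0.11 to 0.056 at IRF7 (2303 bp). The cause was not tested. The difference in summed peaks of the 8 genes, 0.333 per sample, was −0.667 in the gene bodies alone, 1.67 within 5 kb of them, 0.667 for peaks with a value of at least 25, −0.333 with peak numbers made equal between samples and −1.17 to 1.33 with a replicate left out. At STING1 it was 0.333 within 5 kb.

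Open member starts numbered 6 when the midpoint had to lie within 500 bp or the peak over the start base, IFI16 being lost, and 7 otherwise. The unknown depth, 3 samples per condition and a shift common to most starts limit what small differences can show.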
